A study of Mus musculus with 2 samples.

Results

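The genes described here are 3 microRNA (miRNA) genes of the vessel wall, Mir126a, Mir143 and Mir145, in the newborn mouse hindbrain. They were chosen by name, with earlier results of these data known, out of 1973 annotated miRNA genes counted. Mir145 was taken as the gene within 10 kb of Mir143 and carries the symbol Mir145a in the annotation. The study sequenced small RNAs of under 30 nucleotides from total RNA of single hindbrains of mice of strain B6NCrl at postnatal day 0. It holds 1 group of 2 libraries, replicate 1 from pup 1 and replicate 2 from pup 3, with no treatment, no mutant allele and no second condition. One donor identifier is attached to both pups in the labels, and their sex was not collected.

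MicroRNAs are short RNAs that pair through their seed, bases 2 to 8, with messenger RNAs and lower their output. Endothelial cells make miR-126 from an intron of Egfl7, which encodes a secreted protein of endothelium, and in mice miR-126 restrains Spred1 and Pik3r2, inhibitors of vascular growth factor signalling. Mice that lack it can have leaky vessels and bleed before birth. Mural cells, the smooth muscle cells and pericytes around vessels, make miR-143 and miR-145 from a shared primary transcript that serum response factor and myocardin switch on. Both miRNAs favour the contractile state of smooth muscle, and miR-145 lowers the transcription factor Klf4. In whole hindbrain, fewer cells of a type and less RNA per cell cannot be told apart.

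The sequences of the Mir126 locus are shown because they carry the most abundant of the 3 genes and because Mir126b lies on its opposite strand. They come from RefSeq (build GRCm38.p6), and Mir126a is at chr2:26591357-26591429 on the plus strand. In the mature miRNAs the capitals mark the seed, and in the hairpin they mark the miR-126a-3p arm, bases 46 to 67 of 73.
mmu-miR-126a-3p: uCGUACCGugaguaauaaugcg
mmu-miR-126b-5p: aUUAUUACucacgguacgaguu
mmu-miR-126b-3p: cGCGUACCaaaaguaauaaugug
Mir126a hairpin: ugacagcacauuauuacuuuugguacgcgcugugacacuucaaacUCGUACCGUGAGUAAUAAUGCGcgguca
No other mature miRNA of the RefSeq table shares the seed of miR-126a-3p. That seed holds 2 CG dinucleotides, as do the seeds of 18 of the 1679 mature miRNAs in the table as given (1.07%, miR-126a-3p included). The reverse complement of miR-126a-3p and miR-126b-5p share a stretch of 19 bases, so reads of that arm would fall on the strand opposite to Mir126a. The mature forms of Mir143 and Mir145a are named only.

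The loci of the 3 genes differ in their setting. Mir126a (ENSMUSG00000065540.1) starts 11343 bases into Egfl7, a gene of 13107 bases on the same strand of chromosome 2. Of the 19 annotated Egfl7 transcripts, 8 place the precursor in an intron, 1 places it over an exon and 10 do not reach it. Mir145a (ENSMUSG00000065592.1, chromosome 18, 61647825 to 61647894) and Mir143 (ENSMUSG00000065445.2, chromosome 18, 61649196 to 61649258) lie on the minus strand with 1301 bases between them. In GENCODE M21 both lie outside the noncoding gene Carmn, which ends 366 bases from Mir143, whereas the RefSeq entry of Carmn (61645878 to 61665538) spans both. The precursors of Mir126a, Mir143 and Mir145a are 73, 63 and 70 bases long with a GC content of 45.2%, 55.6% and 48.6%, against a median of 50.6% over the detected miRNA genes. None of the 3 shares a 20-base stretch with an annotated transcript elsewhere, on either strand, whereas 88 of the 407 detected genes share one with another miRNA precursor. Reads that match several places were counted for no gene. Mir145b, the named relative of Mir145a, shares at most 17 bases in a row with it and had 0 counts in both pups, a limit of 0.611 CPM for pup 1 and of 0.481 CPM for pup 3.

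Levels are given in CPM, a gene's counts on its own strand per 1000000 such counts over all miRNA genes of the library. The totals came to 4906127 in pup 1 and 6238680 in pup 3. Intervals are exact binomial (Clopper-Pearson, 95%) and, like the limits for a count of 0, cover counting error only. Ligation and amplification favour some small RNAs, so an order of level between genes is an order of counts. Levels were not divided by length, since 1 read spans a whole mature miRNA. Detection was set at 2 CPM in each of the pups, which 20.6% of all counted genes reached, and all 3 genes passed it. The miRNA genes of the Hox clusters, which pattern the hindbrain, were set beside the tissue label. The study holds no other tissue, so their levels cannot test that label. Of these miRNA genes, 5 of 6 were detected, with a summed level of 52557 CPM in pup 1, against 34978 CPM in pup 3. Nearly all of it came from Mir10a and Mir10b, with means of 28396 and 14983 CPM.

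Mir126a, the endothelial gene, had rank 3 in both pups among miRNA genes counted from reads that match 1 place. Reads that match several places were 37.9% of all reads in pup 1 and 39.4% in pup 3, so multi-copy genes can be undercounted and the ranks hold only among the counts as made. It had 234608 counts, or 47819 CPM, in pup 1 (interval 47631 to 48009) and 348038 counts, or 55787 CPM, in pup 3 (55607 to 55968). This amounted to 5.18% ± 0.563 of all own-strand miRNA gene counts (SD, n = 2 pups). Its level was 263 times the median detected gene in pup 1 and 357 times in pup 3. By mean level it stood between Mirlet7g at 60594 ± 6741 CPM and Mir487b at 48749.7 ± 7545 CPM, with 51803 ± 5634 CPM of its own. Within each library Mirlet7g had 1.17 times the counts of Mir126a in both pups (log2 ratio 0.23 ± 0.0036, SD, n = 2), a gap beyond the spread between pups. Mir487b had 0.908 times the counts of Mir126a in pup 1 and 0.969 times in pup 3 (log2 ratio -0.09 ± 0.07), so this order was the same in both pups but the gap was close to the spread. Mir487b shares a 20-base stretch with another precursor, so its own level is less certain.

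Mir143, the more abundant of the mural pair, had 34936 counts in pup 1 and 58409 in pup 3. These were 7121 CPM in pup 1 (interval 7047 to 7196) and 9362 CPM in pup 3 (9287 to 9438), a mean of 8242 ± 1585 CPM. It ranked 35 in pup 1 and 22 in pup 3, the widest spread of the 3 genes at a coefficient of variation of 19.2%, against 10.9% for Mir126a and 11.1% for Mir145. Mir322, Mir127 and Mir411 stood next to it at 8438 ± 1515, 8341 ± 182 and 8061 ± 899 CPM. Relative to Mir143 in the same library, Mir322 was higher in both pups (1.03 and 1.02 times), while Mir127 and Mir411 were higher in pup 1 and lower in pup 3, so their order against Mir143 is not separated.

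Mir145 had 1873 counts in pup 1 and 2035 in pup 3. Its level was 382 CPM in pup 1 (interval 365 to 399), against 326 CPM in pup 3 (312 to 341), a mean of 354 ± 39.3 CPM. It ranked 167 in pup 1 and 161 in pup 3, and 59.0% of detected genes had a lower mean. Its neighbours Mir339 at 356 ± 62.5 CPM and Mir148b at 345 ± 25.6 CPM changed places with it between the pups, so their order is not separated. So the endothelial gene and both mural genes, grouped here as genes of the vessel wall, lay at clearly separate levels in each pup, with no overlap.

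**Figure D1:**
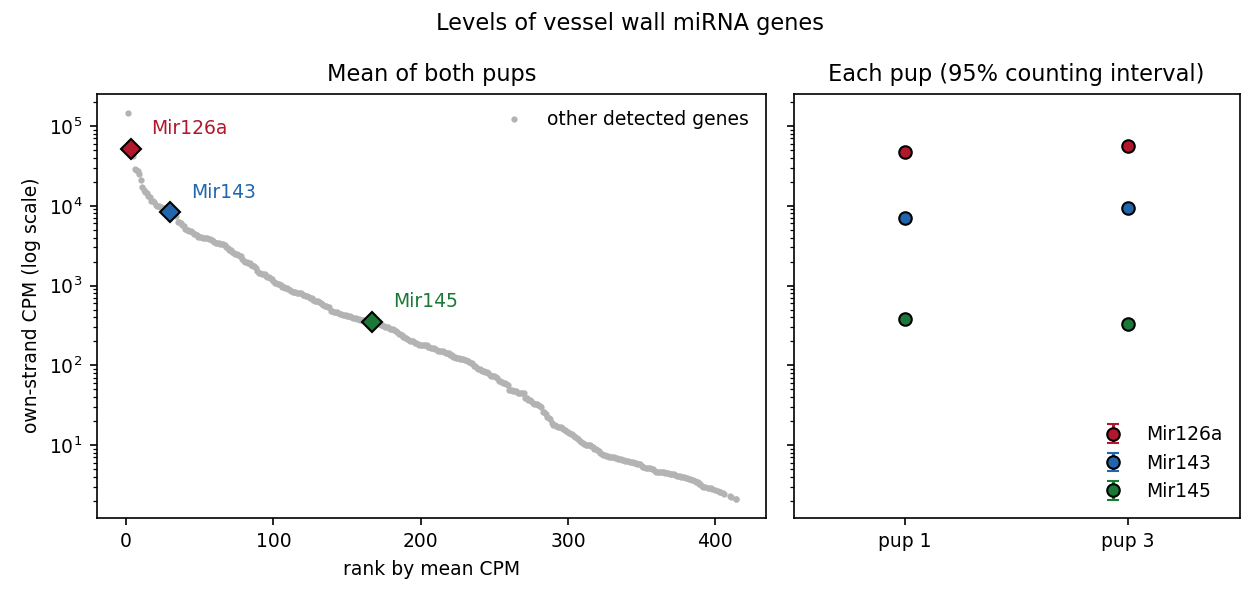
Left, mean own-strand CPM (log axis) of the detected miRNA genes against rank, with the 3 vessel wall genes as diamonds. Right, the same 3 genes in pup 1 and pup 3 with 95% counting intervals, which are smaller than the symbols; Mir126a lies at 47819 and 55787 CPM, Mir143 at 7121 and 9362 CPM and Mir145 at 382 and 326 CPM.

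Ratios of counts within a library need no scaling between libraries. Mir126a had 6.72 times the counts of Mir143 in pup 1 (interval 6.64 to 6.79) and 5.96 times in pup 3 (5.91 to 6.01). On the log2 scale this ratio was 2.66 ± 0.12 (SD, n = 2 pups), and the intervals of the pups do not overlap. Mir126a had 125 times the counts of Mir145 in pup 1 (interval 120 to 131) and 171 times in pup 3 (164 to 179).

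Mir143 and Mir145 are processed from one primary transcript, yet their counts were far apart. Mir143 had 18.7 times the counts of Mir145 in pup 1 (interval 17.8 to 19.6) and 28.7 times in pup 3 (27.5 to 30.0). The log2 ratio was 4.53 ± 0.44 (SD, n = 2 pups). The intervals of the pups do not overlap, and the log2 ratio was lower in pup 1 by more than counting error (difference -0.62, SE 0.05 from counting alone). The 2 libraries give no estimate of how often such a difference arises between animals. Counts per gene do not separate the arms of a precursor, and capture of each sequence was not measured, so the ratio is one of counts.

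To place this gap, it was set beside the other neighbouring detected miRNA genes on one strand within 10 kb, a comparison added after the values were seen. Among the 118 such pairs, Mir143 and Mir145 had a 23.1-fold gap, against a median of 6.21-fold. The gap was larger in 33 other pairs and smaller in 84. Of the pairs in which neither precursor shares a 20-base stretch with another, 72 in all, 14 had a larger gap. Mir322 and Mir503, a pair on chromosome X with no shared stretch, were 58.2-fold apart, and Mir130b and Mir301b were 29.7-fold apart (both chosen after their values were seen). The change of the log2 ratio between pups, 0.62, compared with a median of 0.41 over all pairs, and 38 pairs changed more. A wide gap between neighbours was thus found for other pairs too, also among those with no shared stretch. Some genes belong to more than 1 pair, so the pairs are not all separate loci. The 38 pairs were counted without regard to counting error, so they do not show how common a shift beyond that error is. Some hold genes of few counts, such as Mir547 and Mir201 at 5.72 and 5.05 CPM (change 0.995). Others do not, such as Mir182 and Mir96 at 1376 and 403 CPM (change 1.33), both pairs again chosen after their values were seen.

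**Figure D2:**
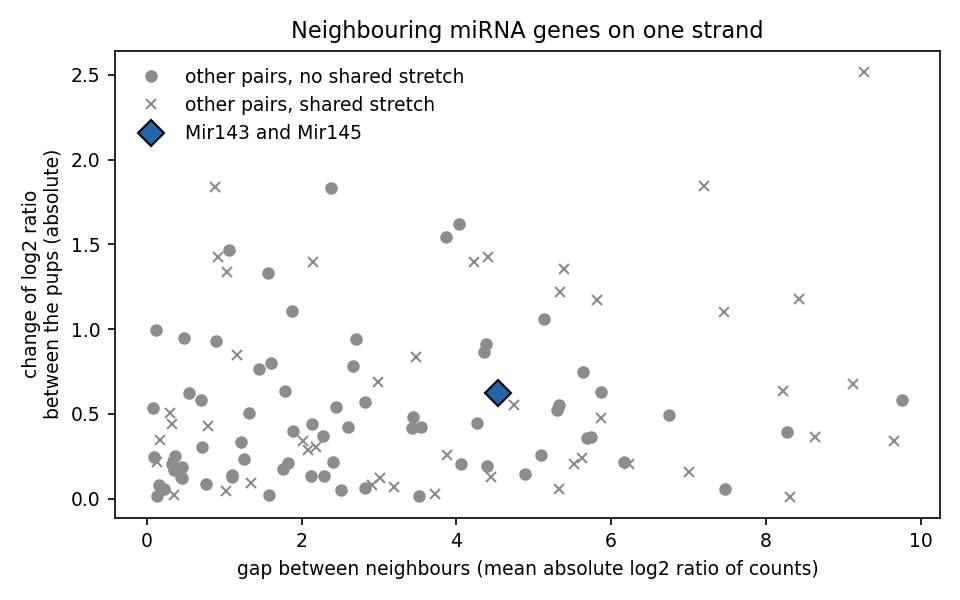
Each point is a pair of neighbouring detected miRNA genes on one strand. The x axis is the gap (mean absolute log2 ratio of counts) and the y axis the absolute change of that log2 ratio between the pups; crosses are pairs with a shared 20-base stretch. Mir143 and Mir145 (diamond) lie at a gap of 4.53 and a change of 0.62, with 33 pairs to the right.

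The 2 libraries were also compared gene by gene by an exact binomial test of their counts, scaled by TMM, with Benjamini-Hochberg adjustment over 508 genes. Its p-values set 1 library against the other, cover counting error only, and say nothing of conditions or of the spread between animals. None of the 3 genes passed an adjusted p under 0.05 together with a 2-fold difference, a rule that called 34 genes (6.69%), 29 higher (5.71%) and 5 lower (0.984%) in pup 1. At any fold, Mir126a and Mir143 were lower in pup 1, as were 23.8% of tested genes, and a further 23.8% were higher.

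Mir126a had a log2 difference of -0.36 (pup 1 over pup 3) with a counting SE of 0.0039, and Mir143 one of -0.53 with an SE of 0.0098. Both adjusted p-values of the exact test were too small for the computation to represent. Of the 407 detected genes, 151 differed more than Mir126a in either direction and 86 more than Mir143. The median absolute difference was 0.27. Among the 50 genes nearest to each in rank, 21 differed more than Mir126a and 7 differed more than Mir143. For Mir126a, at rank 3, nearly all of these 50 genes had lower counts.

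Mir145 had a log2 difference of 0.09 with a counting SE of 0.05 (exact test, adjusted p = 0.106). With DESeq2 size factors the difference was -0.0020 (exact test, adjusted p = 1), and on library totals it was 0.23 (exact test, adjusted p = 2.86e-06). On library totals the median of detected genes was itself 0.14. No direction can therefore be given for Mir145 between the pups. Mir126a and Mir143 were lower in pup 1 under all 3 scalings. This direction was not particular to them. With TMM, Mir99a, Mirlet7g, Mir487b and Mirlet7i, at ranks 1, 2, 4 and 5, had log2 differences of -0.46, -0.37, -0.46 and -0.29, while Mir10a, at rank 7, had 0.25.

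**Figure D3:**
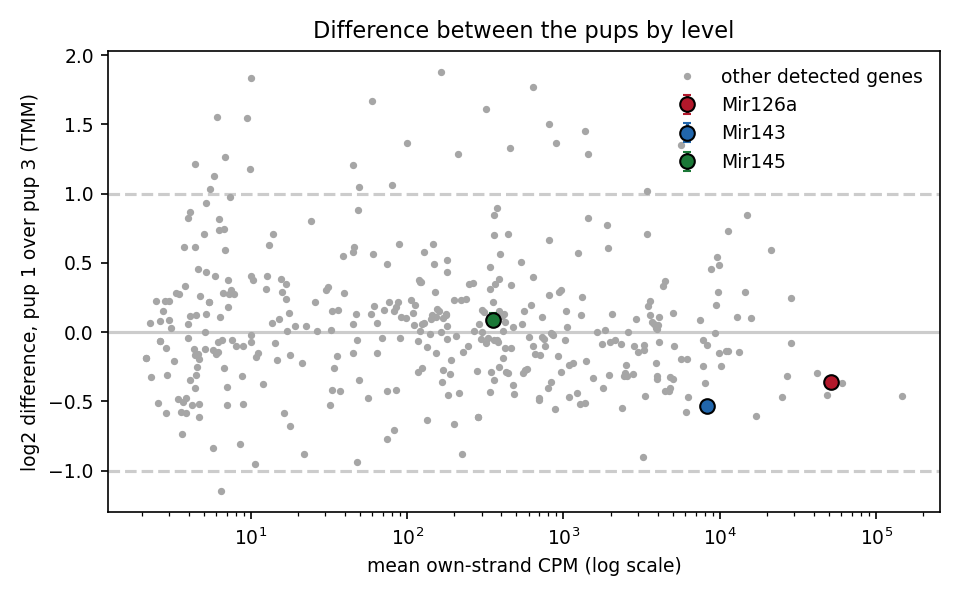
Log2 difference between the pups (pup 1 over pup 3, TMM scaling) against mean own-strand CPM (log axis) for the detected miRNA genes; bars on the 3 vessel wall genes are counting SE and mostly smaller than the symbols, and dashed lines mark 2-fold. Mir126a at -0.36, Mir143 at -0.53 and Mir145 at 0.09 all lie inside the dashed lines.

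By level and difference together, the detected genes nearest to Mir126a over the 2 libraries were Mir487b, Mirlet7g and Mirlet7i, at distances of 0.15, 0.32 and 0.42 (Euclidean, log2 CPM). Those nearest to Mir143 were Mir322 at 0.05, Mir411 at 0.12 and Mir369 at 0.22. Mir322, a miRNA that slows the cell cycle, stood at 7367 CPM in pup 1, against 9509 CPM in pup 3, nearly the values of Mir143. Those nearest to Mir145 were Mir339, Mir665 and Mir410, at 0.09, 0.11 and 0.15. Likeness over 2 libraries of 1 group rests mainly on level.

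Other miRNAs linked to cells of the vessel wall are given from lists of marker genes, chosen with earlier results known and described by counts and medians only. Not all of the listed genes are particular to vessels. The endothelial and angiogenic list had 11 counted genes, and all were detected. Its other leading members were Mir130a at 28569.5 ± 885 CPM, Mir322 at 8438 ± 1515 CPM and Mir23a at 7488 ± 835 CPM, the last in a cluster with Mir27a and Mir24-2. In this list 4 genes share a 20-base stretch with another precursor, among them Mir23a, Mir27a and Mir24-2, so their levels may leave out reads. Mir221 and Mir222, which in human cells restrain the growth factor receptor Kit, were lower at 340 ± 100.3 and 247 ± 58.2 CPM. At any fold, 4 of the 11 were higher in pup 1 and 5 lower with TMM, against 23.8% of all tested genes each way. The counts were 6 and 3 on library totals and 3 and 6 with DESeq2 size factors, for which no share over all genes is given here. None of the 11 was called at 2-fold under any of these scalings. Of all 508 tested genes, 34 (6.69%) were called with TMM, 42 on library totals and 33 with DESeq2 size factors. The list's median log2 difference with TMM was -0.08, against 0.02 over all tested genes. On library totals it was 0.06, where the median of detected genes was 0.14. The list's sum was 98105 CPM in pup 1, against 105217 CPM in pup 3. Mir126a made up 48.7% of it in pup 1 and 53.0% in pup 3, and the other 10 genes summed to 50285 CPM in pup 1, against 49430 CPM in pup 3. The ratio of those 10 genes, pup 1 over pup 3, was 1.02 on library totals but 0.924 with TMM and 0.868 with DESeq2 size factors. Its direction thus depends on the scaling, and Mir130a, at 29195 CPM in pup 1 and 27944 CPM in pup 3, made up most of that sum. The ratio of Mir126a alone was 0.857 on library totals and its direction did not depend on the scaling. This was not particular to Mir126a. Mir322, at 7367 CPM in pup 1 and 9509 CPM in pup 3, and Mir24-2, at 153 and 180 CPM, were also lower in pup 1 on library totals and with TMM.

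The mural and mesenchymal list had 11 counted genes, of which 9 were detected. Besides Mir143, its leading members were Mir140 at 5616 ± 155 CPM, a miRNA of cartilage, Mir21a at 5078 ± 99.4 CPM and Mir195a at 2148 ± 82.5 CPM. Mir214 and Mir199b, miRNAs of mesenchymal cells, had 178 ± 23.3 and 128 ± 12.7 CPM, below Mir145. Mir199b shares a 20-base stretch with other precursors, as do Mir199a-1 and Mir199a-2, so reads at several places may be left out of their levels. At any fold, 0 of 9 tested genes were higher in pup 1 and 5 lower with TMM or DESeq2 size factors. The share over all tested genes with TMM was 23.8% each way, and none is given here for the other scalings. On library totals 6 of the 9 were higher and 3 lower, so the direction of these counts depended on the scaling. The list's median log2 difference was -0.06 with TMM, against 0.02 over all tested genes. On library totals it was 0.08, where the median of detected genes was 0.14. None of its genes was called at 2-fold under any of these scalings, against 34 of all tested genes with TMM (6.69%), 42 on library totals and 33 with DESeq2. The list summed to 20771 CPM in pup 1, against 22897 CPM in pup 3, and its 9 genes other than Mir143 and Mir145 to 13268 CPM, against 13209 CPM in pup 3. The ratio of these 9, pup 1 over pup 3, was 1.004 on library totals, 0.913 with TMM and 0.857 with DESeq2 size factors. The 2 genes not detected were Mir199a-1 and Mir145b.

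Markers of other cell types are given on library totals beside the lower levels of Mir126a and Mir143 in pup 1, and their part in the result was not tested. The erythroid list, all 3 counted genes detected, summed to 498 CPM in pup 1, against 308 CPM in pup 3, led by Mir451a at 461 CPM in pup 1 and 258 in pup 3. Its median log2 difference was -0.09 on these totals and -0.22 with TMM, of opposite sign to its sum under both scalings. Mir144, its second gene, was lower in pup 1 at 16.1 CPM, against 27.7 CPM in pup 3, and Mir486 had 21.3 ± 0.971 CPM. The leukocyte and microglia list, 5 of 5 detected, summed to 1019 CPM in pup 1, against 730 CPM in pup 3. Its leading genes were Mir150 at 394 ± 133 CPM, Mir223 at 212 CPM in pup 1 and 196 in pup 3 and Mir146 at 151 ± 31.4 CPM. The summed levels of both lists and of the Hox list were also higher in pup 1 with TMM and with DESeq2 size factors, and with the last their ratios of pup 1 over pup 3 were 1.38, 1.19 and 1.28.

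Striated muscle miRNAs, markers of skeletal and heart muscle, summed to 247 CPM in pup 1, against 208 CPM in pup 3. Of these, 4 of 8 were detected, led by Mir206 at 164 ± 11.1 CPM. Mir1a-1, Mir133a-1 and Mir133a-2 were at 0 in both pups, but each shares a 20-base stretch with other precursors, so its reads may have been counted for no gene. The neuron list, 8 of 10 detected, summed to 40804 CPM in pup 1, against 36741 CPM in pup 3. In it 2 of 10 tested genes were called higher in pup 1 at 2-fold with TMM, against 5.71% of all tested genes. These were Mir124a-1 (log2 difference 1.54, 73 counts in pup 1 and 25 in pup 3) and Mir124a-3 (1.36, 17 and 4 counts), and Mir153 had -0.90. Both calls rest on fewer than 100 counts in sum, and Mir124a-3 was not detected. Of the list's 10 genes, 7 share a 20-base stretch with another precursor, among them the 3 Mir124a copies and both undetected genes. The level of the list therefore leaves out reads at several places. The choroid plexus and ependyma list, 7 of 7 detected, summed to 19044 CPM in pup 1, against 17212 CPM in pup 3. With DESeq2 size factors the ratios of the neuron and choroid plexus lists, pup 1 over pup 3, were 0.948 and 0.944, so their direction flips.

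**Figure D4:**
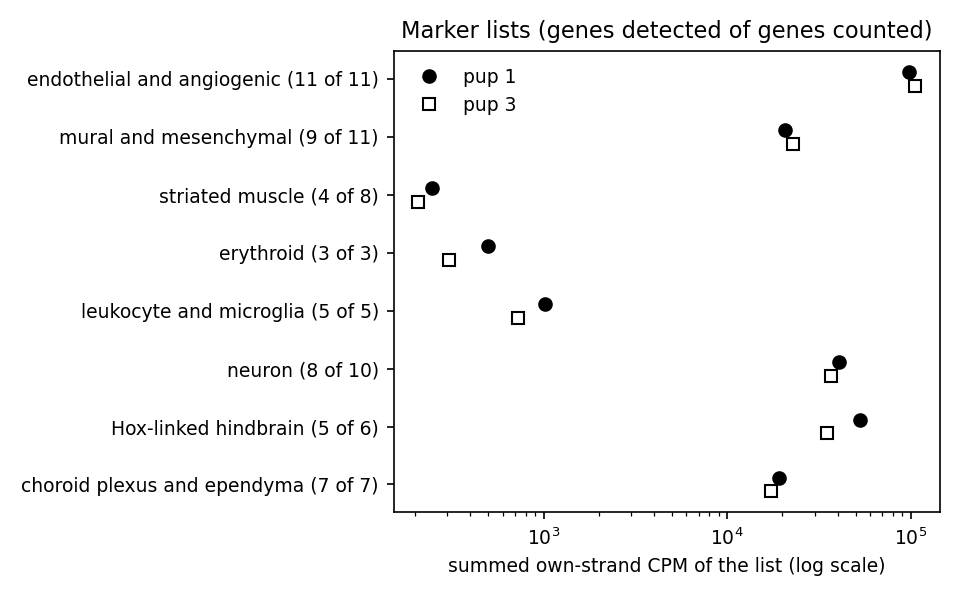
Summed own-strand CPM (log axis) of each marker list in pup 1 (filled circles) and pup 3 (open squares), with the number of detected and counted genes. On these library totals the endothelial and mural lists are lower in pup 1 and the other lists higher, and with DESeq2 size factors the neuron and choroid plexus lists flip.

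On the strand opposite to each gene, Mir143 and Mir145 had 0 counts in both pups, which allows up to 0.00859% and 0.160% of their counts in pup 1 and 0.00514% and 0.147% in pup 3. Mir126a had 13 opposite-strand counts in pup 1 and 8 in pup 3, or 0.00554% and 0.00230% of its counts. Mir126b, which lies over 58 bases of it on that strand, has no entry of its own in the tables. Over all genes the opposite strand took 3.02% of gene counts in pup 1 and 3.39% in pup 3, while most detected genes, 379 in pup 1 and 376 in pup 3, had 0.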

How the data were processed

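The authors deposited read counts as 1 table for each library, in whole numbers per gene, with no normalization or pooling. Per the file headers of the accompanying text files, the assembly was mm10 and the annotation M4. Which aligner and counter were used is not given in the sources used here. Rows naming no gene (17.7% and 13.9% of reads unmapped, 37.9% and 39.4% at several places, 2.66% and 1.59% in no feature, in pup 1 and pup 3) stayed out of totals and tests.

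Of 1973 gene IDs, 1894 matched GENCODE M21 without version. CPM used own-strand totals of 4906127 in pup 1 and 6238680 in pup 3. Scaling used TMM (edgeR 4.0.16) or, as an alternative, DESeq2 1.42.0 size factors. The exact binomial test (scipy 1.17.1, two-sided, 10 or more counts in sum, pseudocount of 1 CPM for log2 differences) was tested on simulated data. The genes named are the members, their neighbours in level, position and likeness, and up to 4 leading genes per list, with some further list genes and example pairs of neighbours. Members and lists were chosen with earlier results of these data known. P-values measure the difference of 2 libraries and cover counting error only. Alternatives covered strand, denominator, scaling, pseudocount, filter, fold and each pup left out.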

Additional observations from a re-analysis of the deposited data

Results flagged for a closer look

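Reads on the strand opposite to Mir126a lie outside the own-strand counts used for every level. They numbered 13 in pup 1 and 8 in pup 3, above the 3 counts that a count of 0 allows. This was 0.00554% of its counts in pup 1 and 0.00230% in pup 3. Most detected genes, 379 in pup 1 and 376 in pup 3, had 0 such counts. Among the 407 detected genes, 23 in pup 1 and 29 in pup 3 had a higher opposite-strand share than Mir126a. The annotation places Mir126b on that strand.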

How the results depend on the processing

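No paired analysis was possible because both libraries belong to 1 group. Of 15 alternative values of the members' differences between pups, 13 kept their direction and side of the threshold. Of 15 alternative levels, leaving out a pup not counted, 10 stayed within 1 SD of the level reported. The 3 ratios on either-strand counts did too. With all reads in the table as denominator, Mir126a was at 21829 CPM, Mir143 at 3480 CPM and Mir145 at 148 CPM. Without the most abundant gene in the total, Mir126a was at 60792 CPM and Mir145 at 414 CPM. The Mir145 difference between pups was -0.0020 (log2) with DESeq2 size factors and 0.23 on library totals. The genes called between the libraries, 34 as reported, were 18 when 100 counts in sum were required, 74 at 1.5-fold and 242 with no fold. Their split, 29 higher and 5 lower in pup 1, was 25 and 8 with DESeq2 size factors and 18 and 0 at 100 counts in sum. With 1 pup left out, the level of each member is that of the other pup. Of the neighbouring pairs, 84 of the 117 others had a smaller gap than Mir143 and Mir145. This was 69 within 2 kb (75.8% of the other pairs there), 93 within 50 kb (71.5%) and 57 without shared stretches (80.3%). These settings were chosen after seeing the data. Depth limits Mir145 most, with 1873 counts in pup 1 and 2035 in pup 3.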
